A study of Mus musculus with 4 samples.

Results

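Lysosome and autophagy genes were examined in single cells of the mouse stomach epithelium. The 37 genes were taken from a list of names that covers lysosomal membrane proteins and the proton pump, lysosomal proteases, glycosidases and lipid-handling proteins, the Atg8 family with the receptor Sqstm1, the initiation and conjugation machinery of autophagy, and the transcription factor Tfeb. All 37 were among the 17712 genes counted, and the rule for them uses names, not measured values. The cells came from Rosa26iH2b-GFP mice, in which a doxycycline-responsive TRE3G promoter drives a fusion of histone H2b and GFP and the Tet-on 3G activator is expressed from an EF1a promoter in the same Rosa26 insertion. The GFP+ libraries hold epithelial cells that still carried GFP, and the Epcam+ libraries hold all epithelial cells, so that the GFP+ sort is a subset of the Epcam+ sort. Both sorts came from female mice aged 14 weeks that had received doxycycline in the diet for 4 weeks and a diet without it for the next 6 weeks, and in both the viable cells negative for Cd45 and Cd31 were kept. Sorted cells of 2 mice were pooled before capture, 2 libraries were made of each sort, and nothing in the sources used here says whether the replicate libraries came from separate mice, so p-values measure only the spread between libraries.

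Lysosomes are acidic organelles in which proteases, glycosidases and lipases degrade material delivered by endocytosis and by autophagy. In autophagy a double membrane encloses cytoplasm, Atg8-family proteins such as LC3 and GABARAP are coupled to lipids of that membrane, and the finished vesicle fuses with a lysosome. TFEB and its relatives switch on many lysosomal and autophagy genes through short E-box sites in their promoters, and in gastric chief cells lysosomes and autophagy are known for clearing secretory granules when the cells dedifferentiate after injury.

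The promoters of the members are shown first for those E-box sites. RefSeq windows of 300 bases, 250 before and 50 after each annotated start in GRCm38.p6, were found for 30 of the 37 members, with 37 windows in all. The E-box CACGTG, which reads the same on both strands, was present in 11 of the 37 windows (29.7%), against 7.15% of 32851 windows of all genes. The longer form TCACGTGA, also a palindrome and always containing the E-box, was present in 4 of the 37 windows (10.8%), against 0.974% of all windows. These 4 belonged to Ctsa, Ctsd, Gla and Mcoln1, and the other windows with an E-box belonged to Atg5, Atg7, Ctsl, Gaa, Glb1, Lamp1 and Lgmn. The counts describe letters in a window and were not tested. Below, Ctsa and Ctsd are printed because they hold the longer form, Lamp1 because it holds 4 E-boxes, and Ctsl because its RNA varied most between clusters. Capitals mark each E-box or, where present, the whole longer form.
Ctsa, chr2:164833523-164833822, plus strand: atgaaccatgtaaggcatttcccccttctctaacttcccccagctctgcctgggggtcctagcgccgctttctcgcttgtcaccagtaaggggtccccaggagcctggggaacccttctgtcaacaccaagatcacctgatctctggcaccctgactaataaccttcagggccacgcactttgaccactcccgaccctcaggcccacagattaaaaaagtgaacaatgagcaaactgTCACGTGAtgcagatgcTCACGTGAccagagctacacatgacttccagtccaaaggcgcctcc
Ctsd, chr7:142387778-142388077, minus strand: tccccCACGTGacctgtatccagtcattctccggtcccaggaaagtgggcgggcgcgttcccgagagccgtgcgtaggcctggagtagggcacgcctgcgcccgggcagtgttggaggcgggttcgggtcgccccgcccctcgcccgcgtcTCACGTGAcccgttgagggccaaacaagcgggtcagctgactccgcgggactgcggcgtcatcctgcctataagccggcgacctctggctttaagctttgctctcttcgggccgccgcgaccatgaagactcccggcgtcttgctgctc
Lamp1, chr8:13158911-13159210, plus strand: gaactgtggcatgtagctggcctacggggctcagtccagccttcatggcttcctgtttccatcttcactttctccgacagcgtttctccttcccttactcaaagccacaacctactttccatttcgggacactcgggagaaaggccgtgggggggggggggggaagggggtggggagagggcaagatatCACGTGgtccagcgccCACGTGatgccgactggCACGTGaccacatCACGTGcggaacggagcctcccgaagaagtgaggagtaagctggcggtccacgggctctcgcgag
Ctsl, chr13:64370471-64370770, minus strand: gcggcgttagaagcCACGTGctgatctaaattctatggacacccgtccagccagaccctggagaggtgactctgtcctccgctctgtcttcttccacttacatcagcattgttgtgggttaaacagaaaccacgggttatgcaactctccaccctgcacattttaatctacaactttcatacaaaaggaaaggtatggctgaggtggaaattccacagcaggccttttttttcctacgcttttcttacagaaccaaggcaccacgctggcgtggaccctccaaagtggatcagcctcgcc
In Ctsa the E-boxes began 12 bases before and 5 bases after the start, and in Lamp1 all 4 lay within the last 61 bases before it. In Ctsl the only E-box began 236 bases before the start. These starts are those of the windows printed. The annotated Ctsl gene reaches to chr13:64370890, beyond its window, and another Ctsa window held no E-box. The Atg7 window, from chr6:114670846, lies inside the gene, which starts at chr6:114643097. For Lgmn, the window that covers the annotated start of the gene held no E-box.

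The files held 4449 cells, with 467 and 444 cells in the GFP+ libraries and 1642 and 1896 in the Epcam+ libraries, and between 35571141 and 79455225 molecules (UMIs) per library. The authors' clusters carry numbers only, and each was named from marker genes, whose levels are unscaled CPM (UMIs over the total of the library's cells in that cluster). Cluster 0 was neck-like (Muc6 at 5835 CPM), clusters 1 and 5 chief-like (Chia1 at 15562 and 8596 CPM), cluster 2 pit-like (Gkn1 at 35420 CPM), clusters 3 and 4 isthmus-like (Mki67 at 119 and 573 CPM, with Gkn1 at 9103 and 9251 CPM), clusters 6 and 7 endocrine-like (Chga at 39590 and 7164 CPM) and cluster 8 parietal-like (Atp4b at 3365 CPM). Of the other neck markers, Pga5 and Cftr were highest in cluster 0, at 2502 and 4.87 CPM. Tff2 did not single out cluster 0, at 24816 CPM there, 31992 and 28796 CPM in clusters 3 and 4 and 20647 CPM in cluster 2. Cluster 7 also held the chief gene Clps at 136260 CPM and the muscle gene Tagln at 116 CPM, whose part in its values was not tested. Cluster 5 held Muc6 at 1109 CPM and Gkn1 at 1438 CPM, against 5.95 and 23.2 CPM in cluster 1. Without cells that Scrublet called doublets, cluster 5 kept 54 of 62, 36 of 40, 71 of 85 and 80 of 91 cells (libraries GFP+ 1, GFP+ 2, Epcam+ 1 and Epcam+ 2). In cluster 1 the 3 secretory genes Clps, Pla2g1b and Pgc took 81.7% to 82.6% of all UMIs, so levels across clusters are given as CPM with TMM scaling, a factor of 0.209 to 0.219 in the cluster 1 sums, unless another scale is named. On that scale 9 of the 32 members that averaged at least 10 CPM were highest in cluster 1, against 2 on the scale of UMIs outside the 3 genes and 0 on unscaled totals, so a level of cluster 1 above another cluster holds for the TMM scale. Markers of macrophages and other immune cells, which are rich in lysosomal proteases, summed to at most 1.39 CPM in any library of clusters 0, 1, 2 and 5, and to between 5.08 and 10.2 CPM in cluster 6, with Ptprc at 0 in all of these clusters. Of the 15 immune markers listed, 7 were in the files, and the study had removed cells with a Ptprc count. There were 4 barcodes, covering 8 cells, that occurred in more than 1 library.

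All 37 genes were detected in every cluster. On the TMM scale their summed level differed less between clusters than most single members did, as a sum over genes tends to. The sum was 4076 ± 213 CPM in chief-like cluster 1 (mean ± SD over 4 libraries), 3506 ± 324 CPM in endocrine-like cluster 6, 3309 ± 62.7 CPM in neck-like cluster 0 and 3303 ± 101 CPM in chief-like cluster 5 (4 libraries each). It was 2590 ± 79.7 CPM in pit-like cluster 2 (4 libraries), 2526 ± 160 CPM in parietal-like cluster 8 (2 libraries), 2517 ± 108 CPM in cluster 7 (3 libraries), 2344 ± 2.49 CPM in isthmus-like cluster 3 and 2083 ± 71.4 CPM in isthmus-like cluster 4 (2 libraries each). Libraries of clusters 0, 5 and 6 overlapped, as did those of clusters 1 and 6 and those of clusters 2, 7 and 8, while no library of clusters 0, 1, 5 and 6 was as low as any library of clusters 2, 3, 4, 7 and 8. The roles did not all follow the sum. The Atg8 family with Sqstm1 summed to 1288 to 1516 CPM in cluster 1 libraries, against 681 to 737 CPM in cluster 0. Glycosidases and lipid-handling genes went the other way, at 436 to 468 CPM against 657 to 716 CPM. Ctsl alone held 15.4% of the sum in cluster 6, against 2.42% in cluster 0. Cluster 1 led on the TMM scale only: counted against UMIs outside the 3 secretory genes, the sum was 6567 ± 433 CPM in endocrine-like cluster 6, 5489 ± 116 in neck-like cluster 0, 5350 ± 129 in cluster 5 and 4912 ± 219 in cluster 1, and against all UMIs it was lowest in cluster 1 at 870 ± 54.3 CPM. The order of clusters 6, 0 and 5 above clusters 2, 3, 4, 7 and 8 was the same on the TMM scale and on that of UMIs outside the 3 genes, but not on the other scales. On unscaled totals cluster 5, at 2306 ± 222 CPM, lay below clusters 2, 3, 4, 7 and 8, at 3021 to 3994 CPM. In UMIs per cell, clusters 2, 8, 4 and 3 averaged 134 to 170 UMIs of the members, against 122 in cluster 0, 111 in cluster 1 and 107 in cluster 5. As a share of each cell, the members held a median of 0.534% to 0.559% of the UMIs outside the 3 genes in cluster 0 libraries, 0.562% to 0.661% in cluster 6 libraries and 0.308% to 0.348% in the Epcam+ libraries of clusters 3 and 4.

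**Figure D1:**
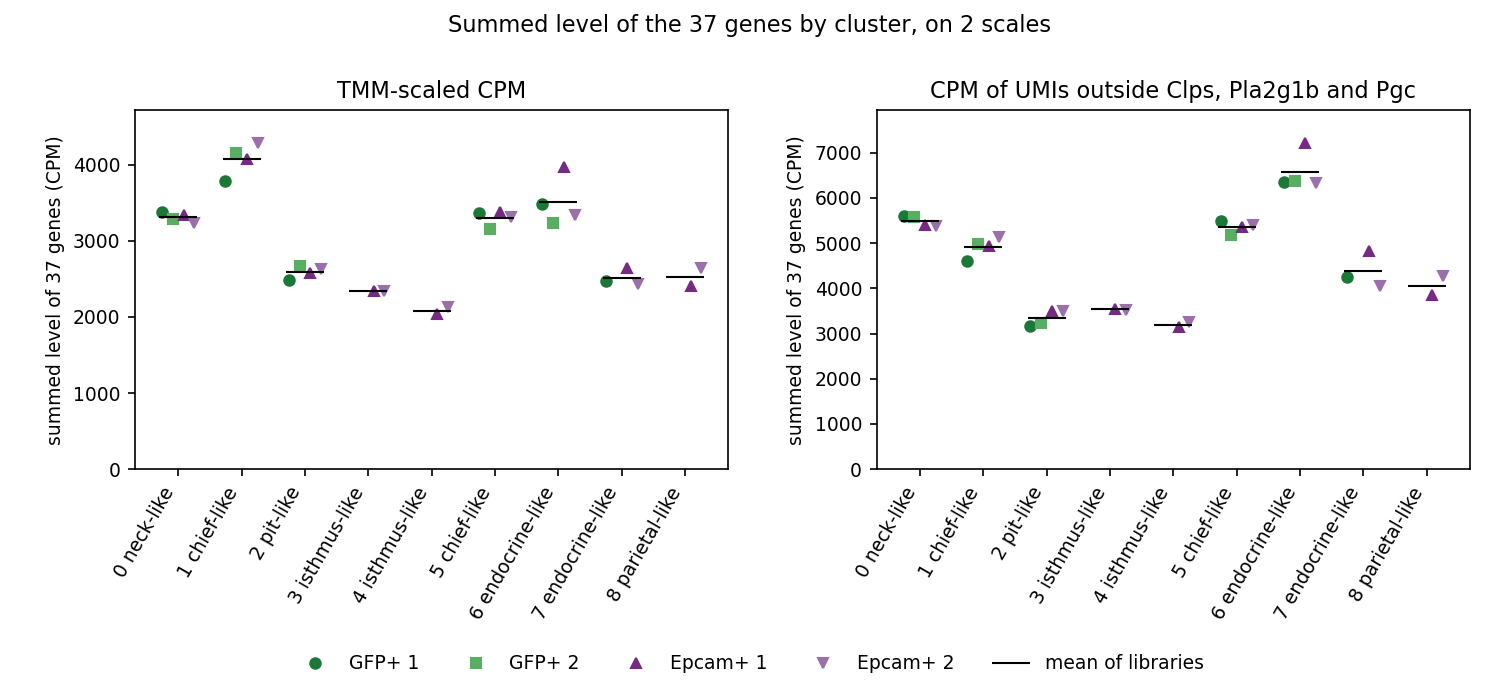
Summed level of the 37 genes (CPM, vertical axis from 0) in each cluster (horizontal axis), with 1 point per library of at least 20 cells and a bar at the mean of the libraries. On the TMM scale (left) cluster 1 is highest at 4076 CPM, and on the scale of UMIs outside Clps, Pla2g1b and Pgc (right) cluster 6 is highest at 6567 CPM; clusters 3 and 4 are low on both, while in UMIs per cell, not drawn, they lie above clusters 0, 1 and 5.

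Between clusters the members were described gene by gene, since the genes of these cells could take part in making the clusters and no test applies. A member was counted as different between a pair of clusters where it differed at least 2-fold in the same direction in every library holding at least 20 cells of both, among the 32 members and 6831 genes that averaged at least 10 CPM, and such differences are given as the mean ± SD over those libraries. Npc1, Mcoln1, Gla, Atg7 and Tfeb did not reach that level. The ratio of the highest to the lowest cluster mean had a median of 3.19 over the 32 members and of 2.99 over the 6831 genes. Ctsl spanned a 24.1-fold range and Ctsh an 11.4-fold range, the widest among the 32, and Asah1, the acid ceramidase, the narrowest at 1.49-fold.

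**Figure D2:**
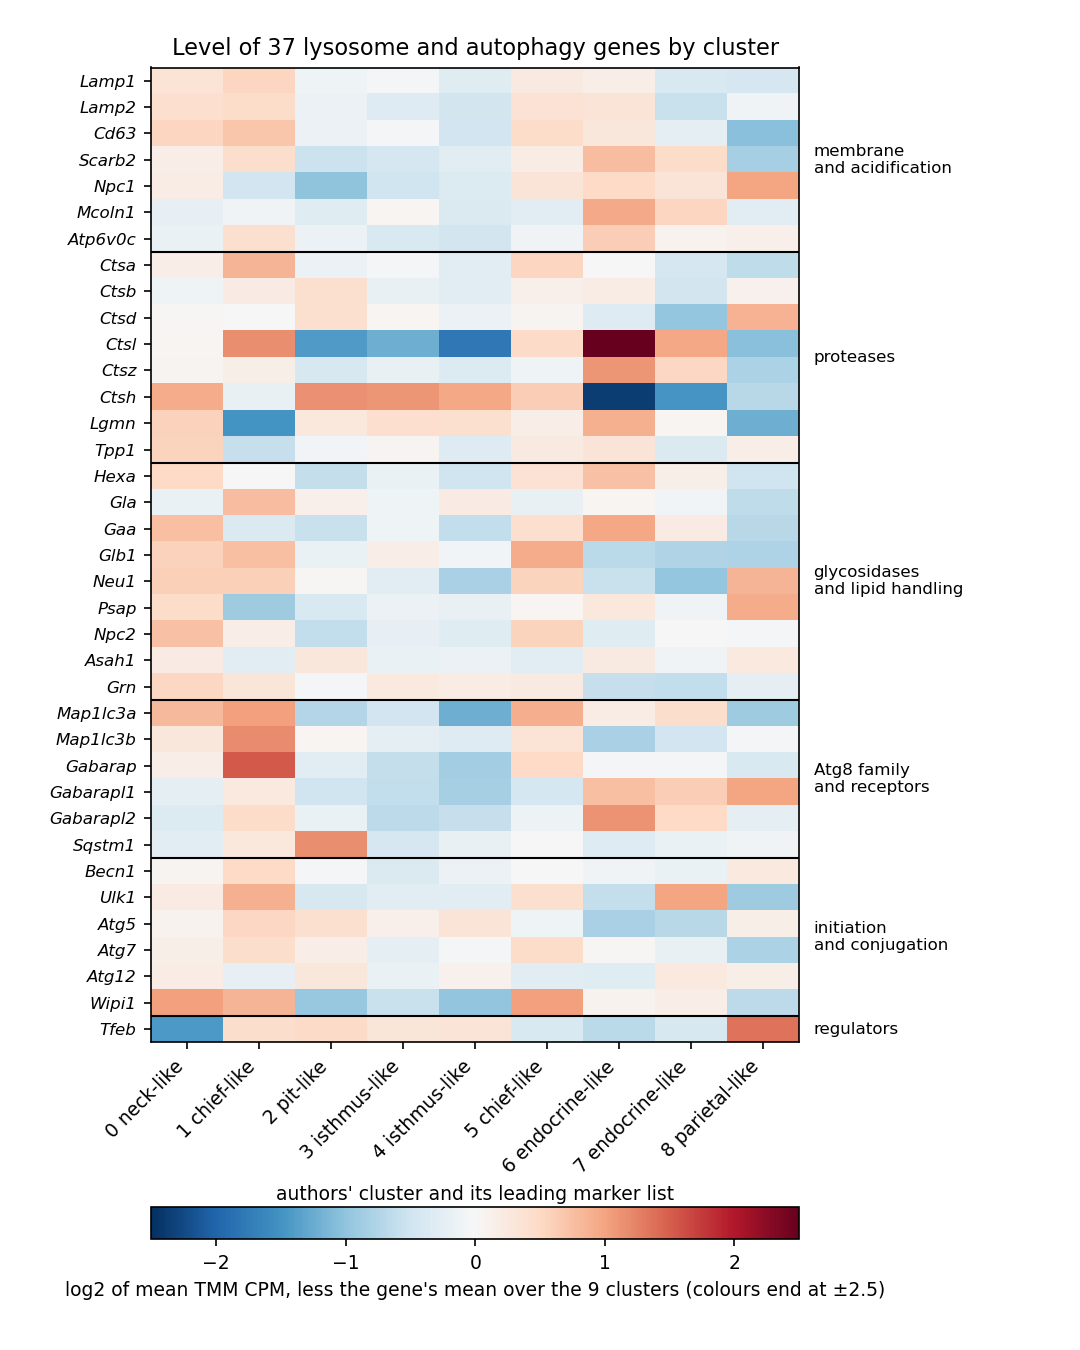
Mean TMM CPM of each of the 37 genes (rows, grouped by role) in clusters 0 to 8 (columns), as log2 less the gene's own mean over the 9 clusters. Ctsl stands out in cluster 6 (541 CPM), Ctsh is low in clusters 6 and 7 (8.92 and 16.7 CPM), Gabarap is high in cluster 1 (782 CPM) on this scale but not on unscaled totals, and Sqstm1 is high in cluster 2 (136 CPM).

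Ctsl, Ctsh and Lgmn had the widest spreads among the proteases. Ctsl encodes cathepsin L, a cysteine protease of the lysosome that also occurs in secretory vesicles of neuroendocrine cells (its gene lies at chr13:64359337-64370890 on the minus strand in mm10). Ctsl was at 533, 467, 704 and 460 CPM in endocrine-like cluster 6, against 81.5, 101, 66.3 and 72.1 CPM in neck-like cluster 0 (libraries GFP+ 1, GFP+ 2, Epcam+ 1 and Epcam+ 2). Every library was higher in cluster 6, by a mean of 2.75 ± 0.49 on the log2 scale, or 6.73-fold. Ctsl held 15.4% of the summed level of the members in cluster 6, against 2.42% in cluster 0. Elsewhere Ctsl averaged 173 ± 16.7 CPM in chief-like cluster 1, 152 ± 27.4 in endocrine-like cluster 7 and 109 ± 11.4 in chief-like cluster 5. It averaged 37.6 ± 10.3 CPM in parietal-like cluster 8, 33.2 ± 2.01 in isthmus-like cluster 3, 29.3 ± 3.96 in pit-like cluster 2 and 22.4 ± 0.142 in isthmus-like cluster 4. Libraries of clusters 1 and 7 overlapped, as did those of clusters 5 and 7, of clusters 0 and 5, and of clusters 2, 3 and 8. Most cluster 6 cells carried Ctsl: after each cell was thinned to 10000 UMIs outside the 3 secretory genes, 95.1% ± 1.13 had a Ctsl UMI in cluster 6, against 64.0% ± 1.86 in cluster 0 and 27.9% ± 3.67 in cluster 2 (SD over 4 libraries). Before thinning these shares were 94.2% to 98.4%, 79.6% to 91.2% and 63.7% to 81.5%, with median depths of 15546 to 27227 UMIs per cell outside the 3 genes in cluster 6 libraries, 18444 to 26825 in cluster 0 and 34233 to 66125 in cluster 2. After thinning, the share was also 85.5% ± 5.79 in cluster 1, 80.0% ± 1.81 in cluster 5 and 79.6% ± 1.63 in cluster 7. It averaged 29.7% to 38.4% in clusters 3, 4 and 8. No cluster is known to lack Ctsl, so the share from free RNA could not be set, and 14 cluster 6 cells, 73 cluster 0 cells and 6 cluster 2 cells were too shallow to thin. Levels also varied among cluster 6 cells, with a median of 7 to 12.5 UMIs and a maximum of 97 to 293 UMIs per cell, and the top cell of a library held 7.36% to 23.2% of its Ctsl UMIs.

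Ctsh, cathepsin H, an aminopeptidase of the same family (chr9:90054152-90076089), had the opposite pattern. It was at 11.0, 5.29, 12.8 and 6.63 CPM in cluster 6, against 87.0, 89.1, 90.6 and 88.2 CPM in cluster 0. The difference was -3.40 ± 0.60 on the log2 scale, or 10.6-fold lower in cluster 6, and no library overlapped. Ctsh was also at 16.7 ± 9.29 CPM in cluster 7, 28.7 ± 4.01 in cluster 8 and 40.9 ± 4.62 in cluster 1, against 102 ± 5.01 in pit-like cluster 2, 99.3 ± 6.93 in cluster 3 and 90.3 ± 4.06 in cluster 4. Ctsl was lowest in the pit- and isthmus-like clusters on this scale and on that of UMIs outside the 3 genes. Ctsh was highest in those same clusters on the TMM scale, but on the other scale neck-like cluster 0, at 147 CPM, lay among them at 132 to 150 CPM.

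Lgmn encodes legumain, an asparaginyl endopeptidase that matures other cathepsins (chr12:102394084-102439813). In cluster 1 it was at 4.94, 4.75, 5.15 and 5.34 CPM, against 21.7, 18.1, 21.8 and 23.3 CPM in cluster 0. The difference was -2.07 ± 0.10 on the log2 scale, or 4.19-fold lower, in all 4 libraries, and Lgmn was lower in cluster 1 on all 4 scales tried. The other chief-like cluster did not share this low level, with 14.7, 11.9, 21.8 and 15.5 CPM in cluster 5, which was 3.09-fold above cluster 1 (log2 difference 1.63 ± 0.32). The neck gene Muc6 and the pit gene Gkn1 were also higher in cluster 5 than in cluster 1, and their part in this difference was not tested. Lgmn was also low in parietal-like cluster 8, at 5.05 and 7.28 CPM, against 21.8 and 23.3 CPM in cluster 0 of the same Epcam+ libraries. The aspartic protease Ctsd was at 202 and 239 CPM in cluster 8, against 127 and 126 CPM in cluster 0 of the Epcam+ libraries, and Ctsz at 104, 92.3, 111 and 82.0 CPM in cluster 6, against 48.3, 49.6, 48.6 and 44.2 CPM in cluster 0. Neither difference reached 2-fold in every library.

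Among the glycosidases and lipid-handling genes, Psap, the precursor of the saposins that present sphingolipids to their hydrolases (chr10:60277627-60302597), was low in cluster 1. It was at 73.7, 76.9, 87.5 and 77.1 CPM in cluster 1, against 186, 196, 214 and 204 CPM in cluster 0. The log2 difference was -1.34 ± 0.05, or 2.54-fold lower, and the libraries did not overlap. Psap was highest in cluster 8, at 230 and 324 CPM, where it made up 11.0% of the summed level of the members. Neu1, the lysosomal sialidase, was at 56.8 and 71.6 CPM in cluster 8, 54.4 ± 7.47 in neck-like cluster 0, 53.9 ± 5.97 in chief-like cluster 1 and 52.4 ± 5.41 in cluster 5, which overlapped, and at 24.4 ± 2.36 in endocrine-like cluster 6, 20.5 ± 0.202 in isthmus-like cluster 4 and 18.3 ± 3.86 in endocrine-like cluster 7. Glb1, the lysosomal beta-galactosidase, averaged 44.0 ± 5.81 CPM in chief-like cluster 5, 39.1 ± 4.40 in chief-like cluster 1 and 34.4 ± 1.80 in neck-like cluster 0. It averaged 14.5 ± 3.07 CPM in endocrine-like cluster 6, 13.7 ± 4.75 in cluster 7 and 13.6 ± 1.37 in parietal-like cluster 8.

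Among the membrane and proton pump genes, Lamp1, the most abundant lysosomal membrane glycoprotein together with Lamp2, had a highest cluster mean 1.94 times its lowest, and for Lamp2 the ratio was 2.03. Cd63, a tetraspanin of late endosomes, was at 170 and 142 CPM in cluster 8, against 493 and 422 CPM in cluster 0 of the Epcam+ libraries, a log2 difference of -1.55 ± 0.03. Cd63 held 14.1% of the summed level of the members in cluster 0 and 6.18% in cluster 8. Atp6v0c, a subunit of the membrane ring of the proton pump, was at 310 ± 18 CPM in endocrine-like cluster 6 and 269 ± 13.1 in chief-like cluster 1, against 181 ± 0.293 in neck-like cluster 0 and 148 ± 7.81 in isthmus-like cluster 4. Scarb2, a lysosomal membrane protein of the scavenger receptor family, was at 49.3 ± 10.5 CPM in endocrine-like cluster 6, 39.3 ± 2.75 in chief-like cluster 1 and 16.1 ± 1.32 in cluster 8.

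**Figure D3:**
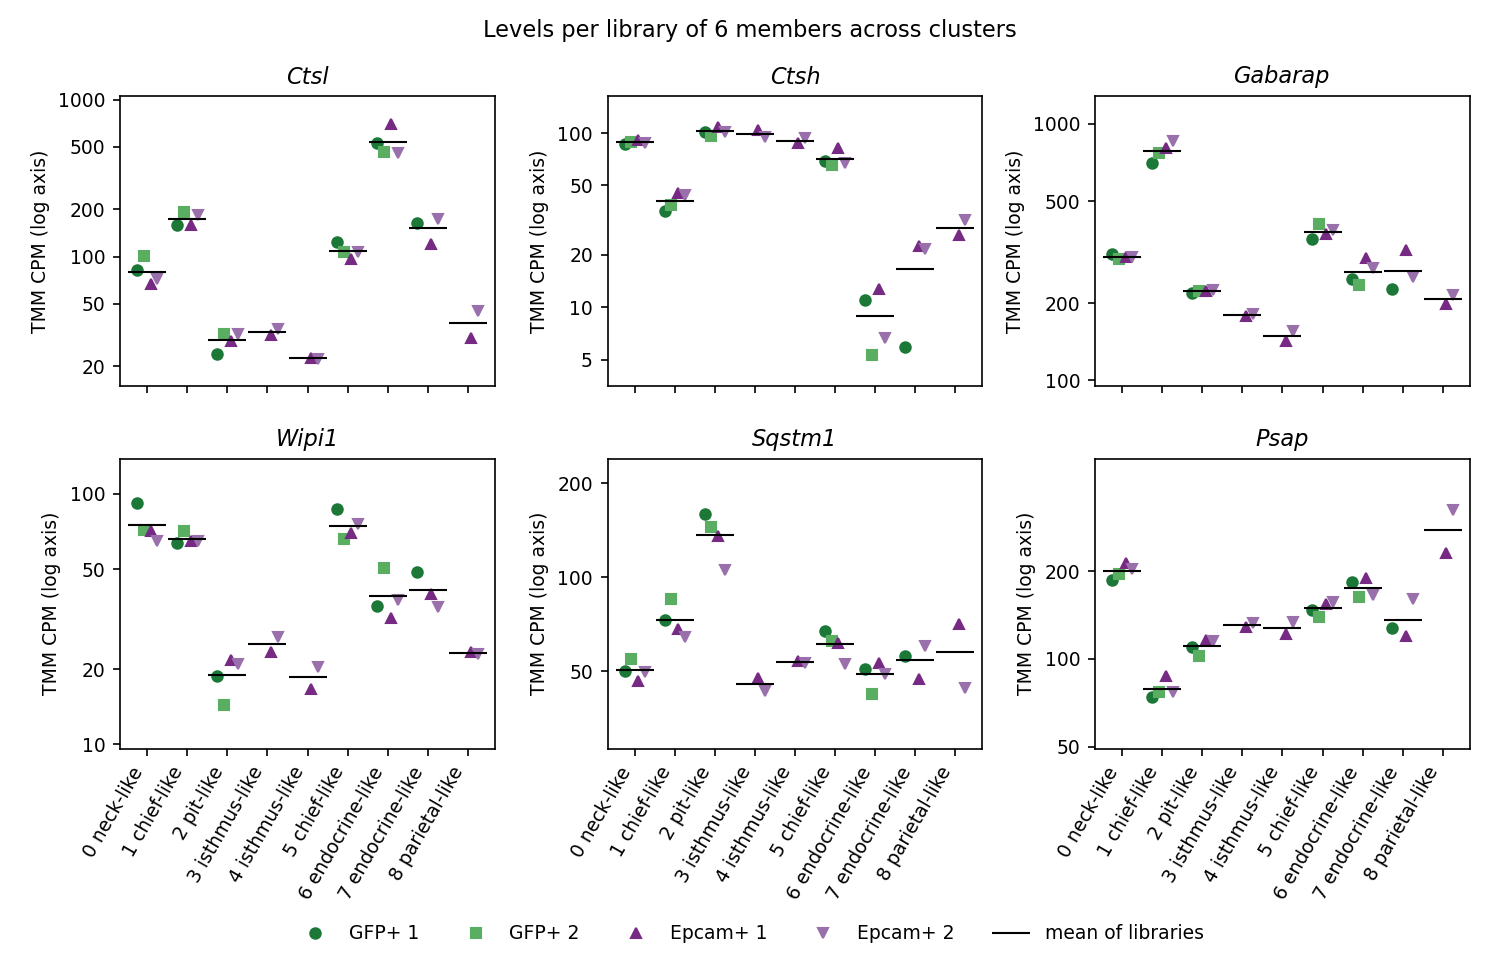
TMM CPM (log axis) of 6 members in clusters 0 to 8, with 1 symbol per library of at least 20 cells and a bar at the mean. The libraries of a cluster lie close together for most members: Ctsl separates cluster 6 (460 to 704 CPM) from cluster 0 (66.3 to 101 CPM), and Wipi1 separates clusters 0, 1 and 5 (63.6 to 92.2 CPM) from clusters 2, 3, 4 and 8 (14.4 to 26.8 CPM), although on unscaled totals cluster 1 averaged 14.1 CPM.

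The Atg8 family split between cell types. Gabarap, which acts in late steps of autophagosome formation (chr11:69991143-69994951), was at 701, 770, 801 and 855 CPM in cluster 1, against 310, 298, 303 and 301 CPM in cluster 0. The log2 difference on the TMM scale was 1.36 ± 0.14, or 2.57-fold higher; it was 0.90 on the scale of UMIs outside the 3 secretory genes, 0.93 in UMIs per cell and -1.32 on unscaled totals, where the median of all genes was -2.65. Gabarap held 19.2% of the summed level of the members in cluster 1 and 9.16% in cluster 0. Map1lc3b averaged 293 ± 33.1 CPM in chief-like cluster 1, 162 ± 9.39 in chief-like cluster 5 and 156 ± 16.2 in neck-like cluster 0, and 73.3 ± 8.08 CPM in cluster 6. Map1lc3a, its close relative, averaged 128 ± 12.5 CPM in chief-like cluster 1, 118 ± 23.5 in chief-like cluster 5 and 110 ± 10.5 in neck-like cluster 0, which overlapped, against 26.9 ± 0.98 CPM in cluster 4. Gabarapl2 was instead highest in cluster 6, at 220, 185, 193 and 169 CPM, against 77.2, 64.8, 69.4 and 68.6 CPM in cluster 0, a log2 difference of 1.45 ± 0.10. Gabarapl1 was at 30.3 and 43.1 CPM in cluster 8, against 13.6 and 15.6 CPM in cluster 0 of the Epcam+ libraries, a log2 difference of 1.31 ± 0.22.

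Sqstm1 encodes p62, a receptor that brings ubiquitinated cargo to Atg8 proteins and is itself degraded by autophagy (chr11:50199366-50210827). It was at 136 and 105 CPM in pit-like cluster 2, against 47.5 and 43.2 CPM in isthmus-like cluster 3, in the Epcam+ libraries that held enough cells of both. The log2 difference was 1.40 ± 0.17, or 2.64-fold higher, and in the GFP+ libraries Sqstm1 was at 160 and 145 CPM in cluster 2. The other 8 clusters averaged between 45.4 and 72.7 CPM.

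In the initiation group, Wipi1, which binds the phosphoinositide of the forming membrane (chr11:109573331-109611967), was high in neck- and chief-like cells. It averaged 75.1 ± 11.8 CPM in neck-like cluster 0, 74.6 ± 9.19 in chief-like cluster 5 and 66.2 ± 3.48 in chief-like cluster 1, whose libraries overlapped, and between 18.5 and 25.1 CPM in clusters 2, 3, 4 and 8. Ulk1, the kinase that starts autophagy, was at 33.8 ± 4.88 CPM in endocrine-like cluster 7 and 31.6 ± 1.92 in chief-like cluster 1, against 19.8 ± 2.43 in neck-like cluster 0 and 9.24 ± 2.37 in parietal-like cluster 8. Atg5, part of the conjugation complex, was at 51.2 ± 4.38 CPM in chief-like cluster 1 and 20.4 ± 4.11 in cluster 6. Tfeb averaged under 10 CPM over all sums and was not counted, with 12.6 and 6.06 CPM in cluster 8, against 1.55 and 1.17 CPM in cluster 0 of the Epcam+ libraries.

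Counted over pairs of clusters, cluster 1 against cluster 0 had 1 member at least 2-fold higher (Gabarap, of 32; 7.16% of all genes passed the same rule) and 2 lower (Lgmn and Psap; 7.77% of all genes). Cluster 5 against cluster 1 had 1 member higher (Lgmn; 4.52% of all genes) and 0 lower (2.08%). Cluster 2 against cluster 3 had 1 higher (Sqstm1; 1.02%) and 0 lower (4.11%), and cluster 4 against cluster 3 had 0 higher (0.995%) and 0 lower (0.995%). Cluster 6 against cluster 0 had 2 members higher (Ctsl and Gabarapl2; 7.48%) and 1 lower (Ctsh; 14.1%). In these 5 pairs between 0 and 2 of the 32 members passed in a direction. On unscaled totals all 32 members were at least 2-fold lower in cluster 1 than in cluster 0, with a median of -2.52 over the members and -2.65 over all genes on the log2 scale. Cluster 8 against cluster 0 had 1 member higher (Gabarapl1; 8.33%) and 8 of 32 lower, where 11.1% of all genes passed. The 8 were Cd63, Ctsh, Lgmn, Gaa, Glb1, Map1lc3a, Ulk1 and Wipi1, with folds of 2.38 to 3.72, and the median log2 difference was -0.60 over the members and -0.07 over all genes. That comparison rests on 23 and 28 cells of cluster 8 in the Epcam+ libraries, and in UMIs per cell, where all genes had a median of 0.90, none of the 32 was 2-fold lower. A further pair was chosen after the levels were seen. Cluster 0 against isthmus-like cluster 3 had 3 members higher, Wipi1, Map1lc3a and Ctsl, by 2.09- to 2.71-fold (4.17% of all genes), and 0 lower (5.49%), and the median was 0.43 over the members and 0.01 over all genes. In UMIs per cell the log2 differences of these 3 were 0.61, 0.35 and 0.23, so none reached 2-fold. The median was then -0.40 over the members and -0.82 over all genes.

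Nearby genes of the same pathways were counted in the same way. Over all genes, 7.16% passed as higher in cluster 1 than in cluster 0, and 2.08% as lower in cluster 5 than in cluster 1. Against cluster 0, 7.48% passed as higher and 14.1% as lower in cluster 6, and 8.33% and 11.1% in cluster 8. Against cluster 3, these shares were 4.17% and 5.49% in cluster 0, and 1.02% and 4.11% in cluster 2. Counts near these shares are no result about a list, and none was tested. Of 15 further V-ATPase subunits above 10 CPM, 4 were at least 2-fold higher in cluster 6 than in cluster 0 and 0 were lower. They were Atp6v1b2 (83.3 and 12.7 CPM in clusters 6 and 0; log2 difference 2.72 ± 0.12), Atp6v0a1 (1.58 ± 0.09), Atp6ap1 (1.29 ± 0.05) and Atp6v1g1 (1.24 ± 0.12). Cluster 8 had 2 of the 15 higher than cluster 0, Atp6v0e at 341 and 154 CPM and Atp6v1d at 94.6 and 35.1 CPM. Of 17 further hydrolases, 3 were higher in cluster 6 (Aga, Ids and Acp2) and 2 lower (Fuca1 and Ctsc), with Ids, the iduronate sulfatase, at 79.1 and 14.9 CPM in clusters 6 and 0. Ctsc, cathepsin C, averaged 53.4 CPM in cluster 1, against 14.9 CPM in cluster 0, and was 2.96-fold lower in cluster 5 than in cluster 1. Gnptg, a subunit of the enzyme that marks hydrolases for the lysosome, was at 115 and 16.5 CPM in clusters 6 and 0 and at 42.6 CPM in cluster 1. Of 24 further autophagy genes, 3 were higher in cluster 1 than in cluster 0, Fundc1, Pik3c3 and Nbr1, by 2.56- to 3.20-fold on the TMM scale. Of 14 TFE factors and mTORC1 regulators, Lamtor2 was higher in cluster 1 than in cluster 0, at 260 and 118 CPM. In cluster 8 against cluster 0, the hydrolases Man2b1, Ctsc and Ctsf, the membrane and sorting genes Slc17a5 and Sort1 and the autophagy gene Atg13 were lower by 2.41- to 2.96-fold. There, Gm2a, Optn and Ddit4 were higher by 2.11- to 2.86-fold. In cluster 6 against cluster 0, Bnip3 was 3.24-fold higher, and Litaf and Optn were 6.02-fold and 3.47-fold lower. Between cluster 0 and cluster 3, Ctsf, Slc38a9 and Bnip3 were higher in cluster 0 by 2.17- to 2.91-fold and Ifrd1 was 3.39-fold lower. In cluster 2 against cluster 3, Ifrd1 was 2.22-fold higher and Ctsf 3.54-fold lower.

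The GFP+ cells were then compared with all Epcam+ cells within a cluster, the question the study asked of chief-like cluster 1. None of the 37 members passed the threshold in cluster 1 (edgeR quasi-likelihood test, adjusted p under 0.05 over 10146 genes), where 0.0887% of all genes were called. Without adjustment 2 members had a p under 0.05, Sqstm1 and Gabarapl1, where 7.97% of all genes did, and DESeq2 called 0 members, with 0 at an unadjusted p under 0.05. Both GFP+ libraries lay above both Epcam+ libraries for 8 of the 37 members and 19.3% of all genes, and below both for 9 of the 37 and 18.6% of all genes. Log2 differences ran from -0.23 (Ctsh) to 0.55 (Npc1), with a median of 0.02 over the members and 0.01 over all genes. For 35 of the 37 the 95% interval lay within a 2-fold change in either direction, and for Npc1 and Tfeb, both counted at under 2 CPM here, it reached 1.14 and 1.16 on the log2 scale.

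The 6 members of smallest p among those above 10 CPM in the cluster 1 sums are given by library. Their values are CPM of these sums scaled among themselves, which are lower than the values above because Clps, Pla2g1b and Pgc stay in the total. Gabarapl1, which had an unadjusted edgeR p under 0.05, fell below that level. Before scaling for depth it had 95 and 238 UMIs in GFP+ libraries, against 97 and 120 UMIs in Epcam+ libraries. Its log2 difference was 0.11 to 0.60 under the alternatives, and it passed in none. Sqstm1 was at 15.8 and 18.3 CPM in GFP+ libraries, against 14.5 and 13.5 CPM in Epcam+ libraries. The groups did not overlap, with a log2 difference of 0.29 (SE 0.11, edgeR adjusted p = 0.557), and the adjusted p was 0.0537 to 1.00 under the alternatives. Neu1 was at 13.6 and 11.2 CPM in GFP+ libraries, against 10.7 and 10.5 CPM in Epcam+ libraries (log2 difference 0.22, 95% interval -0.05 to 0.49). The other 4 were lower in both GFP+ libraries than in both Epcam+ libraries, though none passed. Npc2, which carries cholesterol out of the lysosome, was at 24.3 and 28.7 CPM in GFP+ libraries, against 28.8 and 31.5 CPM in Epcam+ libraries (log2 difference -0.19, interval -0.43 to 0.06). Gabarap was at 152 and 165 CPM in GFP+ libraries, against 171 and 179 CPM in Epcam+ libraries (log2 difference -0.14, interval -0.34 to 0.06). Lamp1 was at 69.1 and 78.0 CPM in GFP+ libraries, against 78.9 and 83.1 CPM in Epcam+ libraries (log2 difference -0.14, interval -0.35 to 0.07). Atg5 was at 10.4 and 10.1 CPM in GFP+ libraries, against 12.0 and 11.1 CPM in Epcam+ libraries (log2 difference -0.17, interval -0.41 to 0.06). The edgeR adjusted p of these 5 lay between 0.697 and 0.768.

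**Figure D4:**
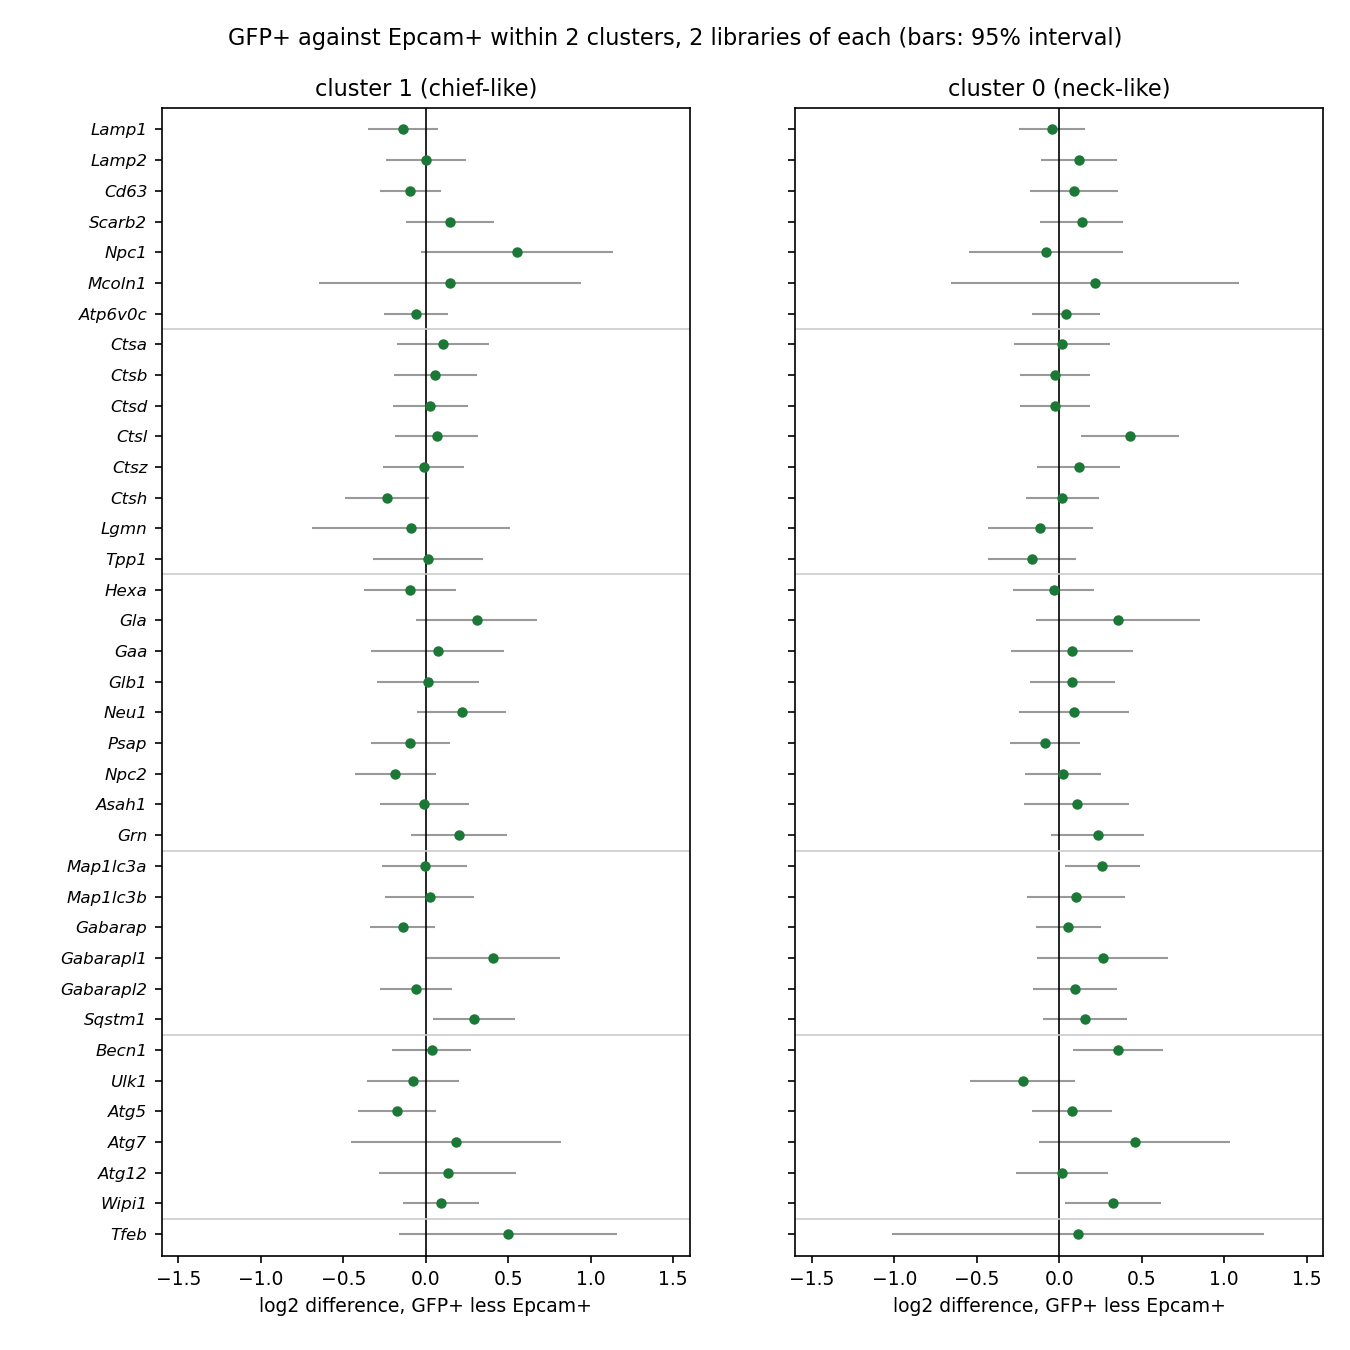
Log2 difference between GFP+ and Epcam+ libraries (horizontal axis, GFP+ less Epcam+; 2 libraries of each) for each of the 37 genes in cluster 1 (left) and cluster 0 (right), with the 95% interval from edgeR. None passed the adjusted threshold; in cluster 1 the differences lie between -0.23 and 0.55, and in cluster 0 Ctsl is at 0.43.

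In the other clusters with at least 20 cells in every library, no member passed either (edgeR quasi-likelihood test). In cluster 0, where 0.159% of 11287 genes were called, 4 members had an unadjusted p under 0.05, as did 11.4% of all genes. Both GFP+ libraries were above both Epcam+ libraries for 15 of the 37 members and 21.5% of all genes, and below both for 3 of the 37 and 22.1% of all genes, and the median log2 difference was 0.09 over the members and 0.01 over all genes. The 4 members, named after their values were seen, were Ctsl, Becn1, Map1lc3a and Wipi1. Ctsl was at 113 and 142 CPM in GFP+ libraries, against 89.8 and 97.7 CPM in Epcam+ libraries, a log2 difference of 0.43 (SE 0.13, adjusted p = 0.319). Without GFP+ replicate 1 the difference was 0.60 with an adjusted p of 0.0188, and over the alternatives the adjusted p ran from 0.00175 to 0.994. Becn1, the scaffold of the lipid kinase complex of autophagy, was at 52.6 and 56.2 CPM in GFP+ libraries, against 44.7 and 39.9 CPM in Epcam+ libraries (log2 difference 0.36, adjusted p = 0.354). Map1lc3a was at 157 and 173 CPM in GFP+ libraries, against 139 and 136 CPM in Epcam+ libraries (0.26, adjusted p = 0.397). Wipi1 was at 127 and 102 CPM in GFP+ libraries, against 96.0 and 88.2 CPM in Epcam+ libraries (0.33, adjusted p = 0.399). In the same cluster the 6 chief markers summed to 25826 and 26164 unscaled CPM in GFP+ libraries, against 13846 and 14475 in Epcam+ libraries, none of them at 0. Their part in these values was not tested.

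In pit-like cluster 2, 0.364% of 10983 genes were called, and 5 members (Npc2, Hexa, Npc1, Atg7 and Sqstm1) had an unadjusted p under 0.05, as did 16% of all genes. Npc2 was at 87.9 and 81.1 CPM in GFP+ libraries, against 116 and 113 CPM in Epcam+ libraries, a log2 difference of -0.43 (SE 0.10, adjusted p = 0.127, and 0.0282 to 0.525 under the alternatives). In chief-like cluster 5, where 35 members were tested and 0.309% of 9074 genes were called, 0 members had an unadjusted p under 0.05 (8.43% of all genes), and the smallest adjusted p was 0.681. In endocrine-like cluster 6, where 36 members were tested and 0.221% of 9960 genes were called, 0 members had an unadjusted p under 0.05 (7.01% of all genes), and the smallest adjusted p was 0.726. DESeq2 called 0 members in each of these clusters, with 1 member in cluster 0, 1 in cluster 2 and 0 in clusters 5 and 6 at an unadjusted p under 0.05.

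Whether the GFP+ difference in cluster 1 departed from that in another cluster was tested as an interaction in edgeR, with the library as a block. None of the 37 members passed. Against cluster 0, 0.113% of all genes were called and 4 members (Ctsl, Map1lc3a, Becn1 and Npc1) had an unadjusted p under 0.05, with 5.49% of all genes. Against cluster 2 these were 0.286% of all genes and 1 member (Npc1), with 8.12% of all genes at that p. Against cluster 5 they were 0.0173% of all genes and 0 members, with 5.36%, and against cluster 6 0.379% of all genes and 1 member (Scarb2), with 5.13%. For Ctsl the difference of cluster 1 less cluster 0 was -0.39 (SE 0.12, adjusted p = 0.592).

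Of the wider lists, with 32 further hydrolases, 24 membrane and sorting genes, 19 V-ATPase subunits, 38 autophagy genes and 25 TFE and mTORC1 genes, 0 genes were called between GFP+ and Epcam+ in any of the 5 clusters by edgeR, with 0 to 4 genes per list and cluster at an unadjusted p under 0.05. In cluster 1 the genes of smallest p included Ppt1 among the hydrolases, with a log2 difference of -0.28, Ostm1 and Tpcn1 among the membrane genes (0.41 and 0.79), Atp6v0e and Atp6v1e1 among the proton pump subunits (-0.42 and 0.25), Pik3c3 and Nbr1 among the autophagy genes (0.47 and 0.24) and Ddit4 and Nprl2 among the mTORC1 genes (0.56 and -0.47). The edgeR adjusted p of the genes named here lay between 0.321 and 0.718. Heat shock and immediate-early genes were set beside these. They had a median log2 difference of 0.49 over 11 genes in cluster 1, with 0 called and 6 at an unadjusted p under 0.05. The median was 0.59 in cluster 5 (1 called, Hspb1, and 9 of 11 at that p), 0.28 in cluster 0 (0 called, 2 at that p), -0.01 in cluster 2 (0 called, 1 at that p) and -0.18 in cluster 6 (0 called, 2 at that p). The 13 mitochondrially encoded genes had a median of 0.23 in cluster 1, with 1 called, and of 0.08 to 0.16 in the other 4 clusters, with 0 called and 3 to 5 at that p. The part of either list in the values of the members was not tested. For heat shock genes, the paper reports higher expression in GFP+ chief cells and protein staining in most GFP+ cells near the basal layers. Whether cell handling or the state of the cells shaped the heat shock and immediate-early medians was not tested.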

How the data were processed

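Stomach epithelial cells of 4 libraries were captured with 3′ single-cell chemistry. The authors made the deposited UMI counts with Cell Ranger 3.0.2 on mm10, removed cells by mitochondrial share, by number of genes and for any Ptprc or Pecam1 count, and clustered the rest; the deposited cluster and library labels were used as given (other columns, no unit). No column was left unused. Doublets that Scrublet called (scanpy 1.11.5; 74 cells, 1.66%) were kept and removed only as an alternative.

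Counts were summed per library and cluster where a library held at least 20 cells. For each cluster, edgeR 4.0.16 in R 4.3.3 tested GFP+ against Epcam+ sums (TMM factors, filterByExpr, two-sided quasi-likelihood test, Benjamini-Hochberg over all genes, threshold 0.05, no block), and DESeq2 1.42.0 was an alternative. On counts simulated for cluster 1, 99.5% of 200 genes changed 2-fold were recovered, and 9.55% of the calls were false. These 200 genes were drawn only from genes above 20 CPM in the cluster 1 sums. Members below that level, such as Sqstm1, Neu1 and Atg5, and differences under 2-fold are not covered by this rate. Levels across clusters are CPM with TMM factors over all sums, with SDs over libraries, and are a description with no test. Folds of 3′ UMIs compare a gene with itself. Levels of different genes were set against each other only as shares of the summed level. The genes named were the members past a threshold and the 6 of smallest p in cluster 1 above 10 CPM in its own sums. They also included the 3 of widest spread per role and members over 10% of the summed level. In the wider lists, 2 genes of smallest p or those passing the 2-fold rule were named. For the hydrolases, 1 gene is not reported here. Members and lists were chosen with earlier results of these data known.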

Additional observations from a re-analysis of the deposited data

How the results depend on the processing

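No alternative called a member between GFP+ and Epcam+ in cluster 1 or in the difference from cluster 1. In the other clusters the count of called members moved to 1 without a filter on low counts (Npc2 in cluster 2), to 2 with a replicate block (Ctsl and Wipi1 in cluster 0, edgeR adjusted p = 0.00175 and 0.0317), and lay between 0 and 1 when 1 library was left out, with Ctsl in cluster 0 called without GFP+ replicate 1. The libraries share only a replicate number, and the correlation of same-numbered deviations was -0.04 to 0.23 over the 5 clusters, so the replicate block was not used as a main result. With 1 library left in a sort, that library is assumed to vary like the others. The 6 members named in cluster 1 kept their direction under all 66 alternative values. These members were picked by p in the main fit and the alternatives reuse the same libraries, so a kept direction is no independent check. The number of all genes called was 9 in cluster 1 and 8 to 412 under the alternatives, 18 and 7 to 665 in cluster 0, 40 and 24 to 639 in cluster 2, 28 and 0 to 226 in cluster 5, and 22 and 3 to 140 in cluster 6; the cause was not tested.

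Against cluster 0, cluster 1 had 0 members 2-fold higher on unscaled totals, outside the 3 secretory genes and in UMIs per cell, and 2 in the Epcam+ libraries alone (Ctsl and Gabarap). It had 32 lower on unscaled totals and 5 lower on each of the scales without the 3 genes and per cell (Ctsh, Lgmn, Tpp1, Gaa and Psap). Gabarap was reversed on unscaled totals (-1.32). Cluster 5 against cluster 1 had 26 members higher on unscaled totals, 3 outside the 3 genes, 2 per cell, and 1 lower in the Epcam+ libraries (Gabarap). Cluster 6 against cluster 0 had 5 higher on unscaled totals and 3 lower in the Epcam+ libraries (Ctsh, Glb1 and Neu1). In UMIs per cell, cluster 8 against cluster 0 had 8 higher and 0 lower, and cluster 0 against cluster 3 had 0 higher. The log2 difference of the summed level was 0.30 for cluster 1 less cluster 0, -2.39 unscaled and -0.16 outside the 3 genes. It was -0.30 for cluster 5 less cluster 1, 1.40 unscaled and 0.12 outside the 3 genes. It was 0.15 for cluster 2 less cluster 3, 0.0302 unscaled and -0.0175 outside the 3 genes, 0.08 for cluster 6 less cluster 0, 0.49 unscaled and 0.26 outside the 3 genes, -0.38 for cluster 8 less cluster 0 and -0.22 unscaled, and 0.49 for cluster 0 less cluster 3, 0.46 unscaled and 0.61 outside the 3 genes. In UMIs per cell, a scale added after the values were seen, the sum was reversed for cluster 1 less cluster 0 (-0.13), cluster 2 less cluster 3 (-0.0432), cluster 4 less cluster 3 (0.0845, against -0.17), cluster 8 less cluster 0 (0.60) and cluster 0 less cluster 3 (-0.34), and was -0.0552 for cluster 5 less cluster 1 and 0.33 for cluster 6 less cluster 0. Without doublets no pair count moved by over 1.5 times. In cluster 3, at least 10 cells per library gave 0 called members.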

Other observations

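Cluster 9 held 32 cells, 1 in GFP+ replicate 1 and 18 and 13 in the Epcam+ libraries, too few for the comparisons. Its tuft markers Lrmp, Dclk1, Trpm5 and Pou2f3 were at 3119, 2365, 497 and 184 CPM over the pooled cells, against at most 0.878 CPM in any other cluster, and the squamous markers Krt5, Krt14, Trp63 and Krt13 were at 0, so the cells were tuft-like. All 37 lysosome and autophagy genes were detected there. On unscaled totals, Gabarap was at 574 CPM in the tuft-like cells, against 167 to 481 CPM as means of the other clusters, and Atg5 at 119 CPM, against 10.9 to 66.6 CPM. Ulk1 was at 57.4 CPM, against 6.74 to 40.5 CPM, Npc1 at 36.3 CPM, against 1.30 to 26.4 CPM, and Becn1 at 72.5 CPM, against 10.0 to 62.5 CPM. Ctsa was at 65.0 CPM, against 9.14 to 43.2 CPM, and Grn at 58.9 CPM, against 6.66 to 49.3 CPM. Atg12 was at 43.8 CPM, against 4.28 to 40.5 CPM, and Map1lc3b at 221 CPM, against 62.5 to 214 CPM. No other member lay above the range of the other clusters. The share of all genes above that range was not counted. Ctsl, at 65.0 CPM from 43 UMIs, lay within the range of the other clusters, as did Ctsh, at 115 CPM. These pooled values have no replicate check. Clps and Pla2g1b were at 1136 and 982 CPM in the tuft-like cells. Together with Pgc they took 81.7% to 82.6% of UMIs in cluster 1 libraries and 54.8% to 61.8% in cluster 5 libraries. Unscaled levels of other genes therefore read low in clusters 1 and 5, and the tuft-like cells were not compared with them on another scale.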
